A study of Mus musculus with 6 samples.

Results

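The miRNAs described here are the endothelial miR-126a pair, the smooth muscle miRNAs miR-143 and miR-145a, and the mesenchymal miR-199a and miR-214, as far as they were listed in extracellular vesicles (EVs, membrane-bound particles that cells release) of mouse primary hepatocytes. They were chosen by name, from a rule of 8 mature miRNAs. Of these, 6 had a row among the 474 miRNAs listed in every library: mmu-miR-126a-3p, mmu-miR-126a-5p, mmu-miR-143-3p, mmu-miR-145a-5p, mmu-miR-199a-3p and mmu-miR-199a-5p, written below without the species prefix. miR-145a-3p and miR-214-3p were not analysed here. All libraries came from ApoE knockout mice, which lack a lipoprotein needed to clear cholesterol-rich particles and develop atherosclerosis. Of the libraries 3 came from mice on chow (Chow-EV) and 3 from mice on a diet labelled HFHC (HFHC-EV). The labels call the libraries biological replicates numbered 1 to 3, and they do not say how many animals stood behind a library or give the age or the length of feeding. Values are RPM, RPM being reads scaled to a fixed total that the authors did not describe, and 1 read was worth between 0.0497 and 0.0523 RPM.

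miRNAs are short RNAs that guide the silencing machinery to messenger RNAs through their seed, bases 2 to 8. miR-126 is made in endothelial cells from the gene of the secreted factor Egfl7, and its 3p product represses Spred1, a brake on VEGF signalling, and the adhesion molecule Vcam1. miR-143 and miR-145 come from a shared precursor of smooth muscle cells, pericytes and fibroblasts, where miR-145 represses Klf4 and holds the contractile state. miR-199a and miR-214 are made from the long RNA Dnm3os in mesenchymal cells, and in liver they are known from activated stellate cells and fibrosis. None of these miRNAs is a characteristic product of hepatocytes, whose own marker is miR-122.

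Mature sequences were found in RefSeq (GRCm38.p6) for 3 of the 6 listed members, and they are shown because they tell which reads can be assigned to which name. Seeds are in capitals.
miR-126a-3p: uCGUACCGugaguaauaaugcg
miR-199a-3p: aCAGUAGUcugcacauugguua
miR-199b-3p: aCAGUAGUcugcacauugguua
miR-199a-5p: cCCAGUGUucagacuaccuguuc
miR-126a-3p shared its seed with none of the 348 listed miRNAs that had a mature sequence, and neither did miR-199a-5p. miR-199a-3p and miR-199b-3p are the same 22 bases, and both names carried the same RPM in 6 of 6 libraries, so their reads cannot be told apart. The hairpin of miR-126a is shown because its arms bear on the 3p and 5p counts, with the 3p product, bases 46 to 67, in capitals.
Mir126a: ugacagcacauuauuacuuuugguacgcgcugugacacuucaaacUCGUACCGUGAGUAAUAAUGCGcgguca
It lies at chr2:26591357-26591429 on the plus strand of GRCm38 and overlaps an annotated exon of Egfl7 in GENCODE M21. The Mir126b hairpin (chr2:26591363-26591420) lies on the opposite strand within it and is the reverse complement of that stretch. miR-126b-3p had 1 read in all 6 libraries together. Mir199a-2 (chr1:162217814-162217923) and Mir214 (chr1:162223368-162223477) both lie in exons of Dnm3os, which runs antisense to Dnm3, and Mir199a-1 (chr9:21496495-21496564) lies on the strand opposite to Dnm2, in an intron of that gene.

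Each library held between 27673 and 65775 miRNA reads, and the members took between 0.0759% and 0.555% of them. The libraries numbered 1 stood apart in both diets in markers of other cell types. The erythroid list (miR-451a, miR-144 and miR-486, 4 listed) summed to 112.8 and 148 RPM in them, against 3.62 to 13.1 RPM in the other 4 libraries. The hepatocyte marker miR-122-5p was at 10.5 and 14.0 RPM in the libraries numbered 1 and between 0.745 and 1.09 RPM in the others, or between 0.0304% and 0.689% of miRNA reads over all 6. Results are therefore also given without the libraries numbered 1. Intervals and floors cover counting error only, since the reads carry no molecular identifiers.

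miR-126a-3p was the most abundant member and was found in all 6 libraries. In Chow-EV it stood at 5.73, 0.497 and 1.55 RPM in replicates 1, 2 and 3 (112, 10 and 30 reads), while the HFHC-EV libraries held 9.39, 2.19 and 4.24 RPM (180, 42 and 81 reads). Replicate 1 was the highest and replicate 2 the lowest in both diets, and the diets overlapped. The means were 2.59 ± 2.77 RPM in Chow-EV and 5.27 ± 3.71 RPM in HFHC-EV (SD, n = 3 each). Within pairs of libraries with the same number, HFHC-EV was 1.64-fold, 4.40-fold and 2.73-fold higher for numbers 1, 2 and 3. Among the 104 miRNAs that averaged 1 RPM or more and were tested, 70.2% had all 3 pairs higher in HFHC-EV on the RPM scale and 9.62% had all 3 lower. The highest library was 11.5-fold above the lowest in Chow-EV and 4.29-fold in HFHC-EV. By abundance miR-126a-3p ranked 35th of all listed miRNAs in both libraries numbered 1, and between 63rd and 106th in the others. Of its sum of squares on log2(RPM + 1), 74.2% went with the replicate number and 24.6% with the diet, against medians of 34.7% and 55.3% over all 104 tested miRNAs.

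As a share of all miRNA reads, which does not depend on the authors' total, miR-126a-3p held 0.374% in Chow-EV replicate 1 (exact Clopper-Pearson 95% interval 0.308 to 0.450), while HFHC-EV replicate 1 held 0.390% (0.335 to 0.451). These intervals overlapped. For number 2 the share was 0.0361% in Chow-EV (0.0173 to 0.0665) and 0.0994% in HFHC-EV (0.0717 to 0.134), a 2.75-fold difference whose intervals did not overlap. For number 3 it was 0.0746% (0.0503 to 0.107) and 0.123% (0.0978 to 0.153), with overlapping intervals. The HFHC-EV share was thus higher in 3 of 3 pairs, by 1.04-fold to 2.75-fold. Of the tested miRNAs, 31.7% had a higher share in all 3 pairs and 33.7% a lower share in all 3.

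miR-126a-5p, the other arm of the hairpin, which represses Dlk1 in endothelial cells, was close to the limit of detection. It had 4 reads in Chow-EV replicate 1, 2 reads in each of HFHC-EV replicates 1 and 3, and 0 in the other 3 libraries. A count of 0 among the 27673 miRNA reads of Chow-EV replicate 2 allows a share of up to 0.0133% (upper end of the exact Clopper-Pearson 95% interval). Over all 6 libraries the 5p product made up 8 of the 463 reads of the pair, or 1.73% (exact Clopper-Pearson 95% interval 0.749 to 3.38). The 3p product was in excess in every library.

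miR-143-3p, which in smooth muscle represses Elk1, was the second most abundant member. It stood at 1.28, 0.348 and 0 RPM in Chow-EV replicates 1, 2 and 3 (25, 7 and 0 reads) and at 3.13, 1.77 and 1.99 RPM in HFHC-EV (60, 34 and 38 reads). Every HFHC-EV library lay above every Chow-EV library, as was the case for 42.3% of the tested miRNAs on the RPM scale, while 6.73% had every HFHC-EV library below. The means were 0.543 ± 0.662 RPM in Chow-EV and 2.30 ± 0.730 RPM in HFHC-EV (SD, n = 3 each), a ratio of 4.23. Within pairs HFHC-EV was 2.45-fold and 5.09-fold higher for numbers 1 and 2. For number 3 it was at least 12.8-fold higher, when 3 reads are taken as the floor of the Chow-EV library without reads.

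As a share of miRNA reads miR-143-3p held 0.0836%, 0.0253% and 0% in Chow-EV and 0.130%, 0.0805% and 0.0578% in HFHC-EV. On this scale the diets overlapped, since Chow-EV replicate 1 lay above HFHC-EV replicates 2 and 3. The HFHC-EV share was higher in all 3 pairs, by 1.56-fold and 3.18-fold for numbers 1 and 2. Of the tested miRNAs, 31.7% had a higher share in all 3 pairs and 33.7% a lower share in all 3. miR-143-3p was among the tested miRNAs only through its level in HFHC-EV.

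miR-145a-5p, the neighbour of miR-143 in the shared precursor, was lower than miR-143-3p in every library in which either had reads. It had 6, 2 and 0 reads in Chow-EV and 8, 0 and 3 reads in HFHC-EV, or 0.135 ± 0.157 and 0.191 ± 0.211 RPM (SD, n = 3 each). The diets overlapped, and 1 of the 3 pairs was lower in HFHC-EV. Of the 183 reads of miR-143-3p and miR-145a-5p together, miR-145a-5p made up 10.4% (exact Clopper-Pearson 95% interval 6.37 to 15.7). Both had 0 reads in Chow-EV replicate 3, although that library held 40223 miRNA reads, more than the other Chow-EV libraries.

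Of the mesenchymal miRNAs, miR-199a-3p, whose reads may come from Mir199a-1, Mir199a-2 or Mir199b, had 3, 2 and 2 reads in Chow-EV and 4, 0 and 5 reads in HFHC-EV, and miR-199a-5p had 2 reads in each library numbered 1 and 0 elsewhere. In RPM, miR-199a-3p stood at 0.119 ± 0.0307 in Chow-EV and 0.157 ± 0.139 in HFHC-EV (SD, n = 3 each), and the diets overlapped. No fold change is given for miR-199a-5p, which had 2 reads in each diet, under the floor of 3. miR-214-5p, the minor product of Mir214, had 1 read in each of Chow-EV replicates 1 and 3 and 0 in HFHC-EV. With so few reads no direction is given for the miR-199a products.

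**Figure D1:**
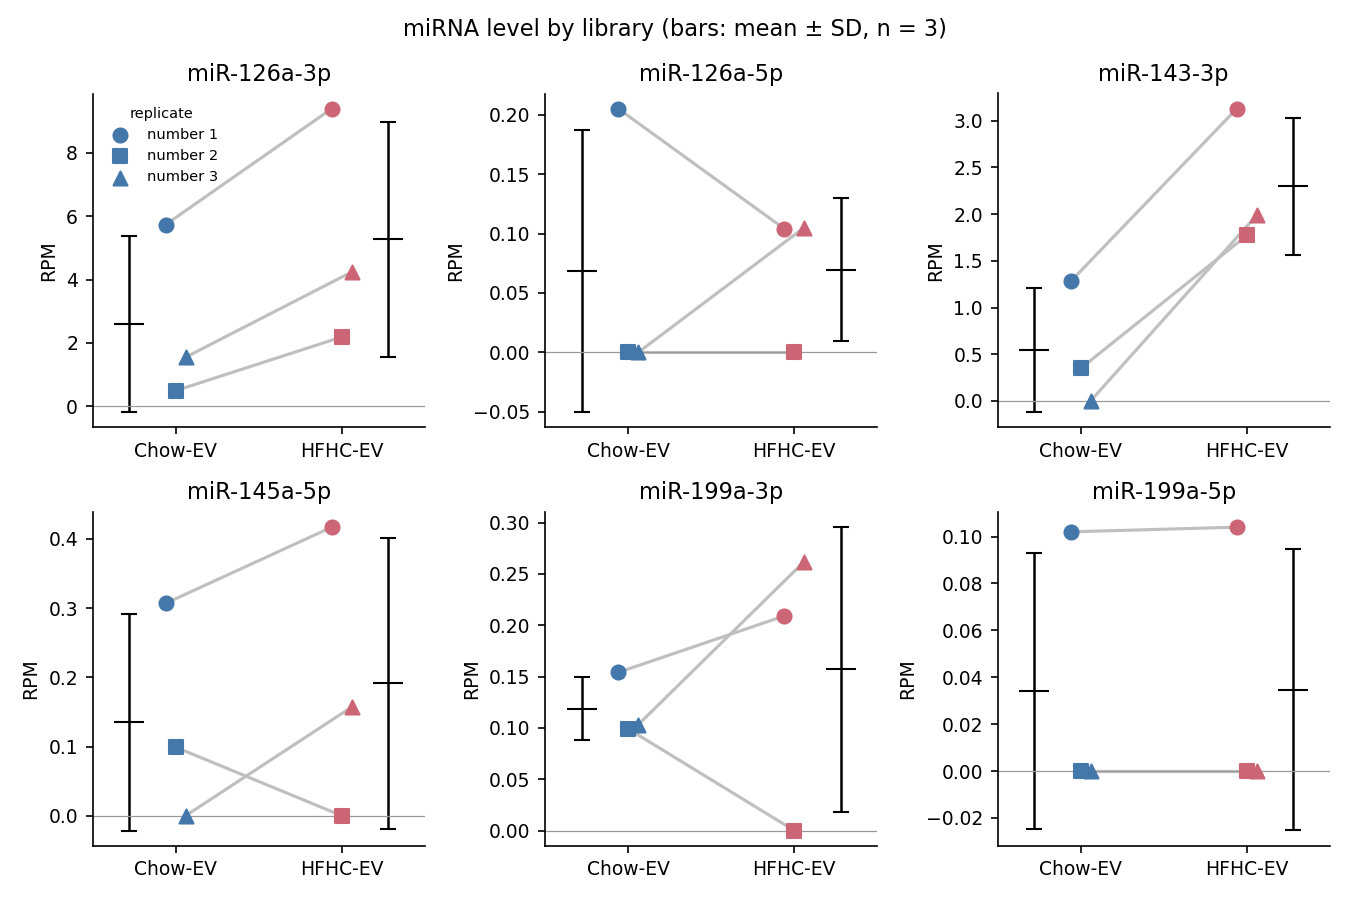
RPM of the 6 listed members in each library, by diet; marker shapes give the replicate number, grey lines join libraries with the same number, and black bars give the mean and SD (n = 3). The axes differ between panels: miR-126a-3p spans 0.497 to 9.39 RPM and miR-143-3p 0 to 3.13 RPM, while the other 4 stay at or under 0.417 RPM.

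Both members with a mean of at least 1 RPM, miR-126a-3p and miR-143-3p, were tested with limma-trend on log2(RPM + 1) among 104 miRNAs, of which 25 (24.0%) were called higher in HFHC-EV and 5 (4.81%) lower at a Benjamini-Hochberg adjusted p under 0.05. Neither member was called. miR-143-3p passed this filter only through HFHC-EV, with means of 0.543 RPM in Chow-EV and 2.30 RPM in HFHC-EV, so its rank and calls are of a miRNA that had to differ to be tested. Without the filter its limma adjusted p was 0.0749, among 422 miRNAs of which 14.2% were called higher and 5.21% lower. For miR-143-3p the log2 fold change was 1.16 (SE 0.359, 95% interval 0.25 to 2.07, limma adjusted p = 0.0695, unadjusted p = 0.0220), the 13th highest of the 104. For miR-126a-3p it was 0.92 (SE 0.715, 95% interval −0.90 to 2.74, limma adjusted p = 0.394, unadjusted p = 0.254), the 26th highest. These fold changes understate the change of such low miRNAs, since 1 RPM is added to each value. The median log2 fold change of all 104 was 0.51 and 85.6% were above 0. edgeR and DESeq2 on recovered reads called neither member (adjusted p = 0.774 and 0.702 for miR-143-3p, and 0.938 and 0.958 for miR-126a-3p). Of all 104, edgeR called 1 higher and 5 lower, and DESeq2 called 7 higher and 12 lower.

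With TMM scaling, which sets the libraries to a common level of most miRNAs and brought the median of all tested to 0.066, the log2 fold changes were 0.81 for miR-143-3p (95% interval −0.23 to 1.85, limma adjusted p = 0.321) and 0.48 for miR-126a-3p (−1.35 to 2.30, adjusted p = 0.902). On that scale 0.962% of miRNAs were called higher and 5.77% lower. Both estimates stayed above the median of all tested miRNAs on both scales.

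The replicate numbers were taken to pair the libraries across diets from correlations in these same values, since no label says what a number marks. Once the number entered the fit as a block, both members were called higher in HFHC-EV. Because the pairing was read from the data that were fitted, p-values with the block are not separate support for a diet difference. In RPM the block left the log2 fold changes as they were and brought the limma adjusted p to 8.9e-09 for miR-143-3p and 1.3e-08 for miR-126a-3p, in a fit that called 66.3% of all tested miRNAs higher and 7.69% lower. With TMM scaling and the block, miR-143-3p was higher by 0.81 (95% interval 0.46 to 1.16, limma adjusted p = 4.9e-04) and miR-126a-3p by 0.48 (0.13 to 0.82, adjusted p = 0.0186) on the log2 scale, while 29.8% of miRNAs were called higher and 19.2% lower. These p-values rest mostly on the spread shared by all tested miRNAs, with 2 residual degrees of freedom of a miRNA's own. In edgeR with the block, which called 24.0% higher and 19.2% lower, miR-143-3p was called (log2 fold change 1.57, adjusted p = 0.0439) and miR-126a-3p was not (0.57, adjusted p = 0.0931). Where TMM was set over all listed miRNAs, a choice made after the values were seen, miR-126a-3p was not called with the block either (0.39, limma adjusted p = 0.0509).

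**Figure D2:**
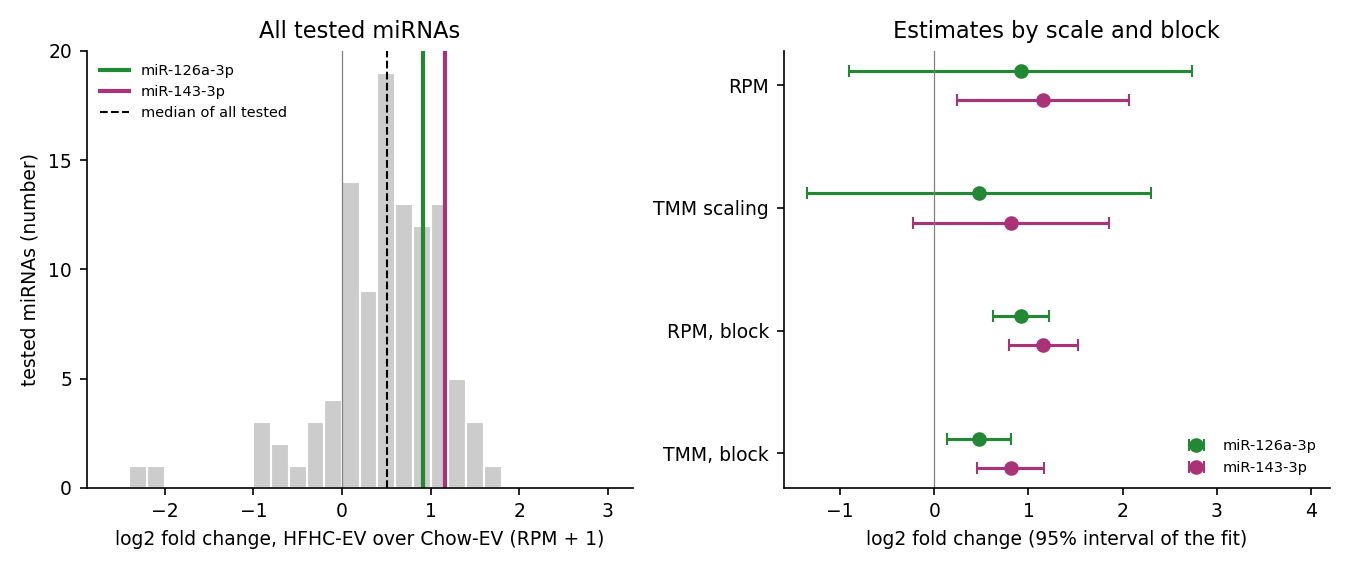
Left, the number of tested miRNAs (104) by log2 fold change on the RPM + 1 scale, with miR-126a-3p (0.92), miR-143-3p (1.16) and the median of all tested (0.51) marked as lines. Right, the log2 fold change of both members with the 95% interval of the fit on the RPM and TMM scales, without the block and with it; the intervals of miR-126a-3p include 0 without the block and lie above it with the block.

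Without both libraries numbered 1, the log2 fold change in RPM was 1.31 for miR-143-3p (limma adjusted p = 0.0577) and 1.06 for miR-126a-3p (adjusted p = 0.234), against 1.16 and 0.92 with them. That fit called 0 of the 104 tested miRNAs higher and 0 lower (21 and 7 at an unadjusted limma p under 0.05). The part of the erythroid and hepatocyte signal of the libraries numbered 1 in the levels of the members was not tested. Leaving out Chow-EV replicate 1 alone gave 1.48 for miR-143-3p, which was then called (limma adjusted p = 0.0284). That fit called 16 higher and 4 lower of the 104 tested miRNAs. It left out the Chow-EV library with the most miR-143-3p (1.28 RPM). For miR-126a-3p the estimate was 1.51 without that library, 0.43 without Chow-EV replicate 2 and 0.47 without HFHC-EV replicate 1, and none of these was called.

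The 3 members between 0.0690 and 0.163 RPM that could be given a fold change were taken from the same fit to all 422 miRNAs with reads. None of them was called in limma (unadjusted p = 0.949 for miR-126a-5p, 0.712 for miR-145a-5p and 0.699 for miR-199a-3p), nor in edgeR or DESeq2. Of the 422, limma called 14.2% higher and 5.21% lower, and the shares called by edgeR and DESeq2 are not given here. The log2 fold changes of the 3 members, 0.0059, 0.064 and 0.042 in the same order, were below 0 with TMM scaling, so no direction is given. A single vesicle preparation mixes the output of all cells present, so that fewer vesicles of a cell type and less of a miRNA per vesicle cannot be told apart.

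The balance between members was compared as a log2 ratio of RPM with 0.5 RPM added to each. The ratio of miR-143-3p to miR-145a-5p was 1.14, 0.50 and 0 in the Chow-EV libraries, against 1.98, 2.18 and 1.92 in those of HFHC-EV. The diets did not overlap, with means of 0.55 ± 0.572 and 2.03 ± 0.137 (SD, n = 3 each; 2-sided exact permutation p = 0.1, the lower limit of this test with 3 libraries a diet). In reads this was 32 to 8 in Chow-EV and 132 to 11 in HFHC-EV, and the 0 of Chow-EV replicate 3 stands for a library without reads of either. miR-145a-5p stayed at or under 0.417 RPM, below the 0.5 RPM added, so this ratio mostly follows the level of miR-143-3p. That miRNA passed the filter only through HFHC-EV, and in RPM 42.3% of the tested miRNAs had every HFHC-EV library above every Chow-EV library. The ratio of miR-126a-3p to miR-126a-5p averaged 2.06 ± 1.07 in Chow-EV against 3.14 ± 0.817 in HFHC-EV, with overlapping libraries (exact permutation p = 0.3). Because the minor product was mostly absent, this ratio follows the level of miR-126a-3p. The ratio of miR-126a-3p to miR-143-3p, added after the values were seen, was 1.36 ± 0.982 and 0.87 ± 0.603 (exact permutation p = 0.6), a difference within the spread between libraries. Together the members held 0.221 ± 0.249% of the miRNA reads of Chow-EV, and of HFHC-EV 0.310 ± 0.212% (exact permutation p = 0.5). Their share was higher in HFHC-EV in 3 of 3 pairs, as for 31.7% of single tested miRNAs, while 33.7% were lower in all 3. These 4 comparisons are not adjusted, since none could pass 0.05.

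Among the 94 other tested miRNAs with an established name, the profile most like miR-126a-3p over the 6 libraries was that of miR-146a-5p, a miRNA induced by inflammatory signalling, with a root mean square difference of 0.23 between centred log2(RPM + 1) values, against a median of 0.92 over all 94. miR-25-3p followed at 0.40, and miR-486a-5p and miR-486b-5p, erythroid miRNAs with identical values, at 0.55. miR-146a-5p stood at 14.5, 3.53 and 5.64 RPM in Chow-EV and 18.8, 5.99 and 9.36 RPM in HFHC-EV, the same order of libraries within each diet as miR-126a-3p. miR-143-3p was nearest to miR-185-5p (0.25), miR-192-5p (0.30) and miR-183-5p (0.31), against a median of 0.72. miR-185-5p stood at 0.870, 0.547 and 0.310 RPM in Chow-EV and 2.35, 1.88 and 1.88 RPM in HFHC-EV. Every HFHC-EV library lay above every Chow-EV library, as for miR-143-3p and for 42.3% of the tested miRNAs. Profiles were matched over all 6 libraries with the diet difference included, so this likeness follows from the choice of neighbour. Like miR-143-3p, miR-185-5p passed the filter only through HFHC-EV (means of 0.576 RPM in Chow-EV and 2.035 RPM in HFHC-EV). The profiles of miR-126a-3p and miR-143-3p differed from each other by 0.56, the fifth nearest seen from miR-126a-3p and the 28th nearest seen from miR-143-3p. All profiles share the same libraries and totals.

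**Figure D3:**
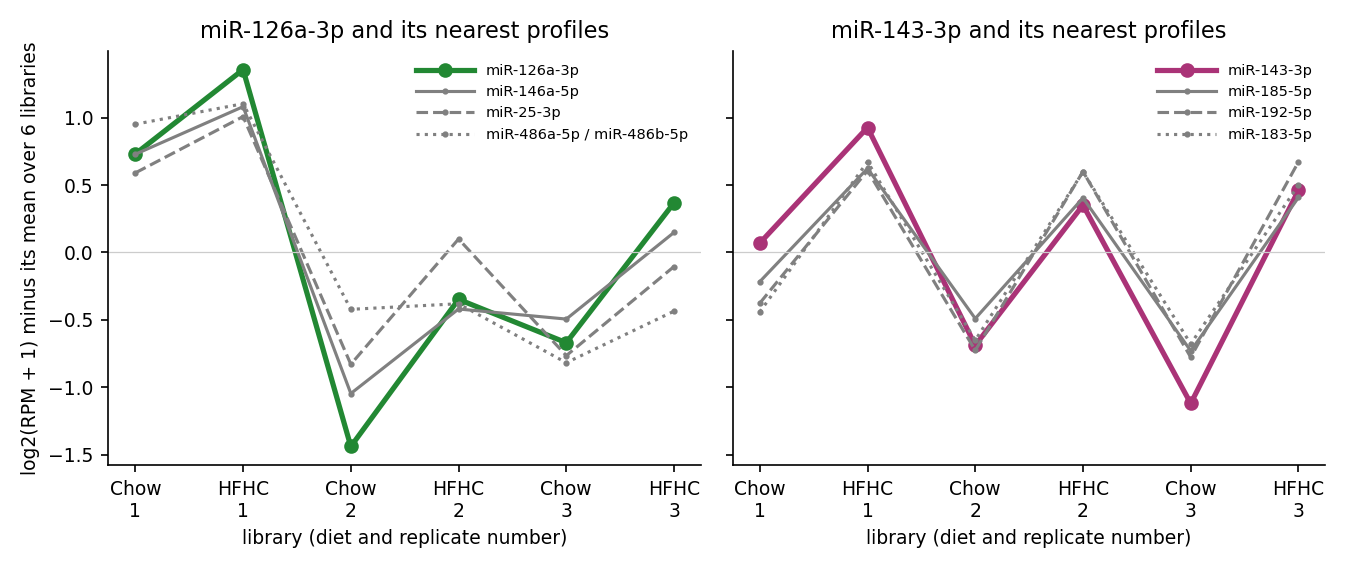
log2(RPM + 1) of miR-126a-3p (left, green) and miR-143-3p (right, purple) with their 3 nearest profiles (grey), each minus its own mean over the 6 libraries, ordered by replicate number. miR-126a-3p and its neighbours peak in the library numbered 1 of each diet (5.73 and 9.39 RPM for miR-126a-3p). miR-143-3p is also highest there (1.28 and 3.13 RPM). Both members and all neighbours shown are higher in the HFHC-EV library of each number, as were 70.2% of the tested miRNAs.

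Marker lists of the cell types that a hepatocyte preparation could hold were summed in each library. The endothelial list, miR-126a alone, summed to 0.497 to 5.94 RPM in Chow-EV and 2.19 to 9.49 RPM in HFHC-EV. The list for smooth muscle, fibroblasts and stellate cells (9 of 13 listed, in which miR-199a-3p and miR-199b-3p count the same reads) summed to 0.361 to 2.41 RPM and 1.77 to 4.69 RPM. miR-143-3p was the most abundant miRNA of that list in 5 of 6 libraries. The muscle miRNAs miR-1a-3p and miR-133a-3p of this list were at or near 0, with 15 and 5 reads in all. The hepatocyte list (5 of 6) summed to 5.53 to 17.0 RPM in Chow-EV and 13.5 to 27.3 RPM in HFHC-EV, the immune list (6 of 7) to 7.95 to 23.6 and 8.08 to 26.0 RPM, and the epithelial list (4 of 7) to 0.155 to 1.74 and 0.314 to 1.09 RPM. The sums of the endothelial, smooth muscle, hepatocyte, erythroid, immune and epithelial lists were highest in the library numbered 1 of each diet, as were miR-126a-3p and miR-143-3p. The part of these other cell types in the levels of the members was not tested. Of the tested members of these lists, limma called 1 of 2 hepatocyte miRNAs (miR-192-5p, higher, limma adjusted p = 0.0038, but not in edgeR, DESeq2 or with TMM scaling) and 0 of 3 erythroid and 0 of 4 immune ones. Of all 104 tested miRNAs limma called 25 higher and 5 lower, and 39 and 7 at an unadjusted p under 0.05. edgeR called 1 higher and 5 lower of the 104, and DESeq2 7 and 12. At that unadjusted p the erythroid and immune lists had 0 and 1, edgeR called 0 and 1, and DESeq2 0 and 1. The miRNA in question was miR-155-5p, at 1.93 ± 0.699 RPM in Chow-EV against 0.853 ± 0.397 RPM in HFHC-EV (SD, n = 3 each), a macrophage and lymphocyte miRNA whose log2 fold change with TMM scaling was −1.01 (limma adjusted p = 0.0352). miR-155-5p passed the filter of 1 RPM only through Chow-EV, so its calls here and below are of a miRNA that had to differ to be tested. Without the filter its limma adjusted p was 0.155. With the block in RPM limma called 1 erythroid miRNA higher (miR-451a), and 1 immune miRNA higher (miR-146a-5p) and 2 lower (miR-150-5p and miR-155-5p). That fit called 66.3% of all tested miRNAs higher and 7.69% lower. With TMM scaling and the block limma called miR-451a higher (adjusted p = 9.3e-04), and miR-150-5p (1.7e-04) and miR-155-5p (3.6e-05) lower, where 29.8% of all tested miRNAs were called higher and 19.2% lower.

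**Figure D4:**
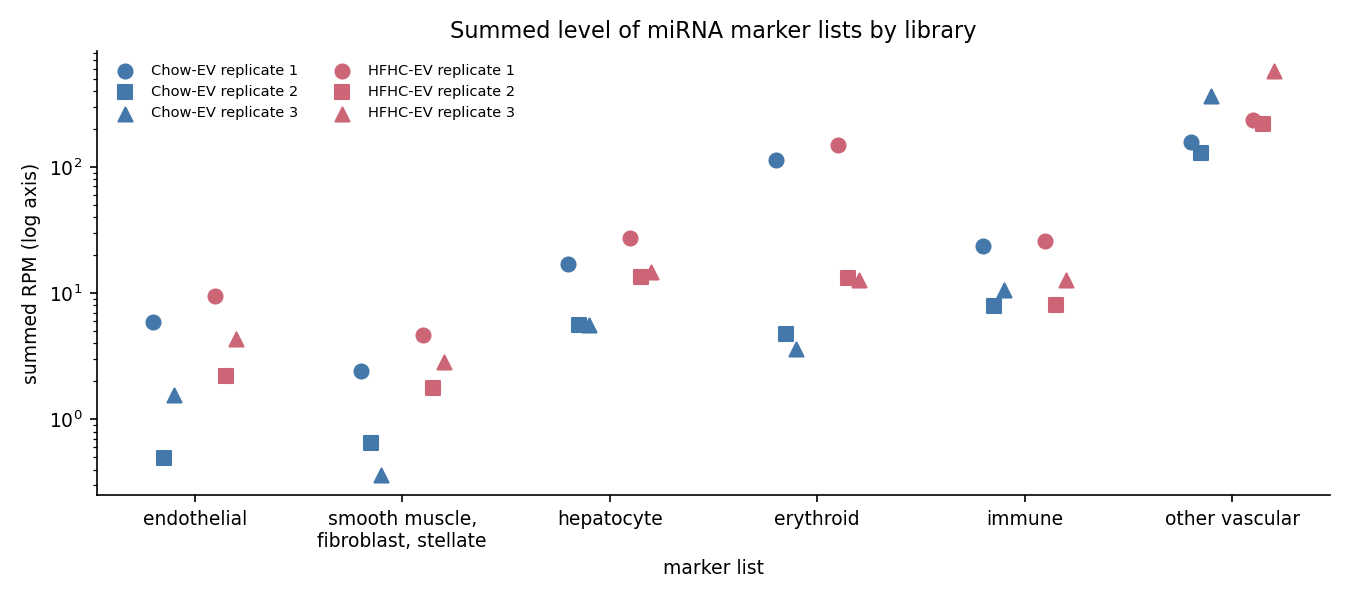
Summed RPM (log axis) of 6 marker lists in each library, with diet by colour and replicate number by marker shape. In the endothelial, smooth muscle, hepatocyte, erythroid and immune lists the libraries numbered 1 are the highest of their diet (5.94 and 9.49 RPM for the endothelial list), while in the list of other vascular miRNAs the libraries numbered 3 are (366.9 and 575 RPM).

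Other miRNAs linked in the literature to endothelial growth or the vessel wall summed to 129.8 to 366.9 RPM in Chow-EV and 218.7 to 575 RPM in HFHC-EV, above the sum of the members in every library. Of 24 such miRNAs 20 were listed, and 12 were tested. limma called 0 of the 12 (1 at an unadjusted p under 0.05), edgeR called 0 and DESeq2 called 1, miR-24-3p, as lower (log2 fold change −0.59). Of all 104, limma called 25 higher and 5 lower (39 and 7 unadjusted), edgeR 1 and 5, and DESeq2 7 and 12. All 12 had a log2 fold change above 0 in RPM, with a median of 0.84 against 0.51 for all tested miRNAs, and 9 of 12 did with TMM scaling, with medians of 0.26 and 0.066. Of all 104 tested miRNAs 89 (85.6%) were above 0 in RPM and 59 with TMM scaling. The most abundant was miR-24-3p, a miRNA of the miR-23 and miR-27 clusters, at 84.2 ± 26.9 RPM in Chow-EV and 91.1 ± 38.5 RPM in HFHC-EV (SD, n = 3 each). miR-23a-3p, from the same clusters, followed at 23.97 ± 14.9 and 51.6 ± 26.2 RPM. With the block 11 of the 12 were called higher in RPM, where 66.3% of all tested miRNAs were. With TMM scaling and the block 5 were called higher and 1, miR-24-3p, lower (log2 fold change −0.56, limma adjusted p = 3.6e-05), against 29.8% and 19.2% of all tested miRNAs. miR-10b-5p, a Hox cluster miRNA with 24 reads, was called higher in the fit without the filter (0.0170 ± 0.0294 RPM in Chow-EV and 0.401 ± 0.132 RPM in HFHC-EV, limma adjusted p = 0.0295). It was the 1 call among the 20 listed miRNAs in that fit, which called 14.2% of 422 miRNAs higher and 5.21% lower. In Chow-EV replicates 1, 2 and 3 miR-10b-5p stood at 0.051, 0 and 0 RPM, under the floor of 3 reads. The summed level of this list was highest in the libraries numbered 3, and that of miR-126a-3p and miR-143-3p in those numbered 1.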

How the data were processed

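Small RNA of 18 to 30 nt was cut from a gel, ligated to adapters and amplified by PCR, per the labels' protocols. The submitters' processing notes name Bowtie2 and GRCm38.p6. How reads were trimmed, annotated and shared between like miRNAs is not given in the sources used here. The deposited values are RPM, which the authors computed over a total they did not describe. Low values were whole multiples of 1 step per library, and 100% of values above 0 came out within 0.1 of a whole read, so reads were recovered. Every pair of libraries of a diet differed by more than sampling noise (lowest chi-square divided by its degrees of freedom, 32.6).

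The members, lists and tests were chosen with earlier results of these data known. limma-trend (limma 3.58.1, R 4.3.3) was fitted to log2(RPM + 1) over the 104 miRNAs whose mean reached 1 RPM, without covariates beside diet and with Benjamini-Hochberg adjustment at 0.05. Single values had 2-sided exact permutation tests (scipy 1.17.1). limma in RPM with and without the block, limma with TMM scaling, edgeR with and without the block, and DESeq2 were tested on simulated data. The other fits, TMM scaling with the block among them, were not. The simulation held no effect of the replicate number, so it cannot tell how the block behaves where there is one. edgeR 4.0.16 and DESeq2 1.42.0 on recovered reads, other scalings, filters and pseudocounts, the replicate block and left-out libraries were alternatives. No label says what a replicate number marks. Deviations from the diet means had correlations of 0.945, 0.894 and 0.946 where the number was shared. Across numbers they were −0.819 to 0.0265. The numbers were therefore taken to pair the libraries. P-values other than those of the block fits measure the spread between these libraries, which the labels call biological replicates. The block takes out the spread between replicate numbers, and its limma p-values rest mostly on the spread shared by all tested miRNAs.

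The miRNAs named are the members, for each tested member the 3 nearest profiles by root mean square difference of centred log2(RPM + 1), and of each marker list its called members up to 4, otherwise its 2 most abundant where given. miR-1a-3p, miR-133a-3p, miR-126b-3p, miR-150-5p, miR-155-5p, miR-199b-3p and miR-214-5p were chosen after their values were seen.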

Additional observations from a re-analysis of the deposited data

How the results depend on the processing

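miR-143-3p and miR-126a-3p kept a log2 fold change above 0 under all 22 alternatives run on each, from 0.22 to 2.56 and from 0.27 to 1.51 (limma, edgeR or DESeq2 adjusted p from 8.9e-09 to 0.774 and from 1.3e-08 to 0.971). miR-143-3p was called under 5 of them: the replicate block in RPM (1.16), with TMM (0.81), with TMM over all listed miRNAs (0.76) and in edgeR (1.57), and leaving out Chow-EV replicate 1, where left-out libraries gave 0.89 to 1.48. miR-126a-3p was called under 2, the block in RPM (0.92) and with TMM (0.48); left-out libraries gave 0.43 to 1.51.

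The number of higher calls, 25, was 1 with TMM scaling, 3 with RLE, 1 with total scaling, 4 with TMM over all listed miRNAs, 60 without the filter, 1 in edgeR, 7 in DESeq2 and 69 with the block. It was 13 without Chow-EV replicate 2, 16 without Chow-EV replicate 1, HFHC-EV replicate 1 or HFHC-EV replicate 2, 15 without HFHC-EV replicate 3, 32 without Chow-EV replicate 3, and 0, 0 and 40 without both libraries numbered 1, 2 and 3 (21, 19 and 48 at an unadjusted p under 0.05). The number of lower calls, 5, was 22 without the filter, 1 with a mean of at least 5 RPM, 12 in DESeq2, 8 with the block, 20 with the block and TMM, 20 with the block in edgeR, 26 with the block and TMM over all listed miRNAs, and 0 to 5 without a library or a number.

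The low members changed sign with scaling. For miR-126a-5p, miR-145a-5p and miR-199a-3p the log2 fold changes were −0.043, −0.035 and −0.048 with TMM, with or without the block, −0.053, −0.050 and −0.057 with TMM over all listed miRNAs, with or without the block, −0.034, −0.021 and −0.037 with RLE and −0.047, −0.043 and −0.055 with total scaling. They were −0.80, −0.34 and −0.41 in edgeR, −0.35, −0.29 and −0.56 in edgeR with the block and −0.63, −0.14 and −0.24 in DESeq2. Single left-out libraries gave −0.039 to 0.096, −0.069 to 0.18 and −0.025 to 0.14. Without both libraries numbered alike they were −0.063 to 0.072, −0.0098 to 0.16 and −0.035 to 0.13. The share of miRNA reads held by the members differed by 0.089 percentage points (−0.033 to 0.23 without a library, below 0 without HFHC-EV replicate 1). The 3 ratios kept their direction under each pseudocount and left-out library, but the size moved. miR-126a-3p to miR-126a-5p, 1.08, was 0.55 when Chow-EV replicate 2 was left out, 0.64 when HFHC-EV replicate 1 was and 1.63 when Chow-EV replicate 1 was. miR-126a-3p to miR-143-3p, −0.49, was −0.26, −1.05 and −0.15 when Chow-EV replicates 1, 2 and 3 were left out in turn, −0.77 and −0.17 when HFHC-EV replicates 1 and 2 were, and −1.21 and −0.24 with 0.1 and 1 RPM added. miR-143-3p to miR-145a-5p, 1.48, was 1.21 to 1.78 without a library and 2.32 with 0.1 RPM added. The causes were not tested. With 4 to 19 reads each, depth limits what can be seen of the low members.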
